A study of Mus musculus with 80 samples.

Results

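The genes described here encode the receptors that sense interferons and the proteins that carry the signal from the cell surface to the nucleus. They were chosen by name, as genes acting upstream of the interferon response, by a rule that holds no measured value, although earlier results of these data were known when it was written. They make up 9 of the 25899 genes in the expression table. They are the receptor chains *Ifnar1*, *Ifnar2*, *Ifngr1* and *Ifngr2*, the kinases *Jak1* and *Tyk2*, and the transcription factors *Stat2*, *Irf7* and *Irf9*. All 9 passed the filter on low values in every comparison. Their RNA was measured in muscle stem cells (MuSCs) of extraocular muscles (EOM), the cranial muscles that move the eye, and of the Tibialis anterior (TA), a muscle of the lower leg, before and after transplantation into the TA of host mice.

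All donors were Tg:Pax7-nGFP mice on a C57BL/6;DBA2 F1/JRj background, aged 7 or 7.6 weeks, in which a nuclear GFP under the control of *Pax7* marks MuSCs and was used to sort them in all 4 groups. The pre-graft groups were 8 EOM and 8 TA libraries of 500 freshly isolated cells each. The post-graft groups were 7 EOM and 7 TA libraries of far fewer cells, 9 in the smallest, sorted again by GFP 21 days after transplantation. Donors were aged 7.6 weeks in Experiment 1 and 7 weeks in Experiment 2. Experiment 1 gave 3 of the pre-graft EOM, 2 of the pre-graft TA, 1 of the post-graft EOM and 1 of the post-graft TA libraries. The others came from Experiment 2, so the mix of experiments and ages also differed between groups. EOM and TA cells of 1 donor had been injected into opposite TAs of the same host, whose TAs had been injured with cardiotoxin the day before. The hosts were Rag2-/-;γC-/- mice on a C57BL/6J background, which differs from that of the donors. Such hosts lack T, B and NK cells and keep their other cells, among them macrophages and endothelial cells. Post-graft libraries therefore differ from pre-graft libraries in transplantation, injury, host genotype and strain, time and number of sorted cells at once. These cannot be told apart.

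The 30 libraries had 3326270 to 14402975 reads each, of which 963432 to 4169357 fell on genes. The share of gene reads from the 13 mitochondrial genes had a median of 3.77% (range 2.96% to 9.18%) in pre-graft EOM, 13.6% (3.47% to 28.8%) in pre-graft TA, 43.7% (5.59% to 67.6%) in post-graft EOM and 38.3% (8.73% to 81.1%) in post-graft TA. Values are on the log2 scale of RPM, reads scaled to a fixed library total, so a library with more mitochondrial reads has lower values for its other genes. The median change of all genes on this scale was -1.09 after grafting of TA cells and -1.48 after grafting of EOM cells, and the text gives changes beside this median and also after subtracting each library's median gene (here called centred values), which brought the medians to -0.19 and -0.23. By the test described below, 30.9% of all genes were lower after grafting in TA and 55.8% in EOM. *Pax7* had reads in every library, and 11 of 12 MuSC markers were lower after grafting in both muscles by that test. *Pax7* fell by 3.07 in TA and by 1.94 in EOM on the log2 scale before centring. Centred, 10 of the markers were lower and 1 higher in TA, and 2 were lower in EOM. Of all genes, 743 of 13076 were called lower in TA and 634 of 13094 in EOM when centred. In sorted populations of this kind, fewer cells of a type and less RNA per cell cannot be told apart.

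Interferons are secreted proteins through which cells signal viral infection and tissue damage. Type I interferons bind a receptor made of Ifnar1 and Ifnar2, to which the kinases Tyk2 and Jak1 are attached. The kinases phosphorylate Stat2, which acts with Irf9 in a complex called ISGF3 that binds the interferon-stimulated response element (ISRE) in target promoters. The type II interferon, Ifng, binds Ifngr1 and Ifngr2, signals through Jak1 and Jak2, and acts on promoters that hold the gamma-activated sequence (GAS). Irf7 is a transcription factor of the same family as Irf9, drives type I interferon genes after nucleic acid sensing, and is itself a target of ISGF3.

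The genes stand at these positions of GRCm38: *Ifnar2* at chr16:91372783-91405589, *Ifnar1* at chr16:91485238-91507441 and *Ifngr2* at chr16:91547072-91565169, all on the plus strand in 1 cluster of cytokine receptor genes, *Ifngr1* at chr10:19591949-19610229 and *Stat2* at chr10:128270576-128292849, both plus, *Jak1* at chr4:101152367-101265282, minus, *Tyk2* at chr9:21104069-21127346, minus, *Irf7* at chr7:141262706-141266481, minus, and *Irf9* at chr14:55603571-55610030, plus. Exons of *Ifnar2* share 9.46% of their bases with *Gm21970* on the same strand, and those of *Tyk2* share 8.07% with the antisense gene *1700084C06Rik*. The study's quality list gives near equal shares of reads on the sense and antisense strands. Reads of *Tyk2* and of its antisense partner therefore cannot be told apart where their exons overlap.

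Promoters of 3 genes are printed because *Irf7* was the member that rose after grafting, *Stat2* was the only member with an ISRE match, and *Isg15*, a ubiquitin-like protein induced by interferon, serves as the reference target. They are RefSeq promoter sequences of GRCm38.p6, read 5′ to 3′ on the strand of the gene, with matches to GAAANNGAAA on either strand in capitals. The sequences cover chr7:141266482-141266674 (minus) for *Irf7*, chr10:128270248-128270497 (plus) for *Stat2* and chr4:156200819-156201068 (minus) for *Isg15*. Bases inside an annotated transcript were left out.
Irf7: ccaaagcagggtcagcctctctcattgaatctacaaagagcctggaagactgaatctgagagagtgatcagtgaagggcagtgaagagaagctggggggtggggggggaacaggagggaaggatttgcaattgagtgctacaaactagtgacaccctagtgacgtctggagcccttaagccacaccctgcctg
Stat2: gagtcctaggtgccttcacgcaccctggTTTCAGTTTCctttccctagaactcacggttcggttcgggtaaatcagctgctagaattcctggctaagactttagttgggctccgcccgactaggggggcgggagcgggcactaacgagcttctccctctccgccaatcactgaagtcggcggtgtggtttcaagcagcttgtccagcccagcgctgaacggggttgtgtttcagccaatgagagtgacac
Isg15: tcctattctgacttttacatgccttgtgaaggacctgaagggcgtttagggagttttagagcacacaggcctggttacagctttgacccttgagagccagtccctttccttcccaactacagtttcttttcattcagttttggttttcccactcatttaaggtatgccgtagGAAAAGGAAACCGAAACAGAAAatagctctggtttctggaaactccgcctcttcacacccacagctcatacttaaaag

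Over windows from 250 bases before to 50 bases after the RefSeq start, searched on both strands, the ISRE letters GAAANNGAAA were in 1131 of 32851 promoters (3.44%), or 1079 of 27025 genes (3.99%). Among the members, 1 of 9 held them: *Stat2*, with the match starting 222 bases before the start. Of 31 interferon target genes listed for comparison, 22 had a promoter in the table and 14 of these (63.6%) held a match, *Isg15* with 3 overlapping ones. The GAS letters TTCNNNGAA were in 9.55% of genes, in 2 of 9 members (*Ifnar1* and *Ifnar2*) and in 8 of 22 targets (36.4%). *Irf7* held neither pattern in this window, which says only that these letters are not there.

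Before grafting, none of the members passed the test for a difference between the muscles, a call needing both a Benjamini-Hochberg adjusted p below 0.05 and a change of more than 1 on the log2 scale (limma across 13217 genes). The background was 1.26% of genes called higher in TA and 3.31% called lower (166 and 437 genes, or 234 and 275 when centred). For 8 of the 9 members TA had the lower mean, with a median log2 difference of -0.65 against -0.30 for all genes. *Ifngr1* was the exception, with 0.10 ± 0.17 (SE, adjusted p = 0.741).

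The receptor chains *Ifnar1* and *Ifnar2*, which together bind type I interferons, had the lower mean in TA, within overlapping ranges. *Ifnar1* had a lowest, median and highest log2 RPM of 6.55, 7.18 and 7.46 over the 8 EOM libraries and of 4.74, 6.73 and 7.23 over the 8 TA libraries. *Ifnar2* had 7.23, 7.52 and 7.99 in EOM and 6.34, 6.99 and 7.47 in TA. The differences were -0.65 ± 0.27 (SE, adjusted p = 0.136) for *Ifnar1* and -0.54 ± 0.17 (adjusted p = 0.0575) for *Ifnar2* by limma. For the chains that bind *Ifng*, *Ifngr1* had a median of 6.67 in EOM and 6.65 in TA, and *Ifngr2*, the signalling chain that recruits *Jak2*, ranged from 4.40 to 5.56 in EOM and from 3.26 to 5.06 in TA. The *Ifngr2* difference was -0.88 ± 0.31 (adjusted p = 0.0818).

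The kinases differed from each other in how well they were measured. *Jak1*, which serves both receptor types, had a median log2 RPM of 9.71 in EOM (9.28 to 10.1) and 9.39 in TA (8.92 to 9.99). *Tyk2*, which pairs with *Ifnar1*, was covered by 10 to 63 reads in EOM libraries and by 0 to 92 in TA libraries, with no read in 2 of the 8 TA libraries. Its difference of -0.77 ± 0.88 (adjusted p = 0.607, limma) is therefore poorly determined.

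The genes *Stat2* and *Irf9*, the partners in ISGF3, were the members whose muscle difference was largest against its error. *Stat2* had a lowest, median and highest log2 RPM of 7.94, 8.25 and 8.66 in EOM and of 6.93, 7.50 and 8.20 in TA. *Irf9* had 7.94, 8.31 and 8.75 in EOM and 6.64, 7.75 and 8.11 in TA. Most TA libraries were lower for both genes, with overlapping ranges, and the differences were -0.70 ± 0.18 (SE, adjusted p = 0.0146) for *Stat2* and -0.72 ± 0.19 (adjusted p = 0.0213) for *Irf9*, under the fold threshold of 1. On centred values they were -0.46 (adjusted p = 0.204) and -0.48 (adjusted p = 0.182). *Irf7* had 4.79, 6.61 and 7.24 in EOM and 4.99, 6.26 and 6.61 in TA, a difference of -0.33 ± 0.31 (adjusted p = 0.535).

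**Figure D1:**
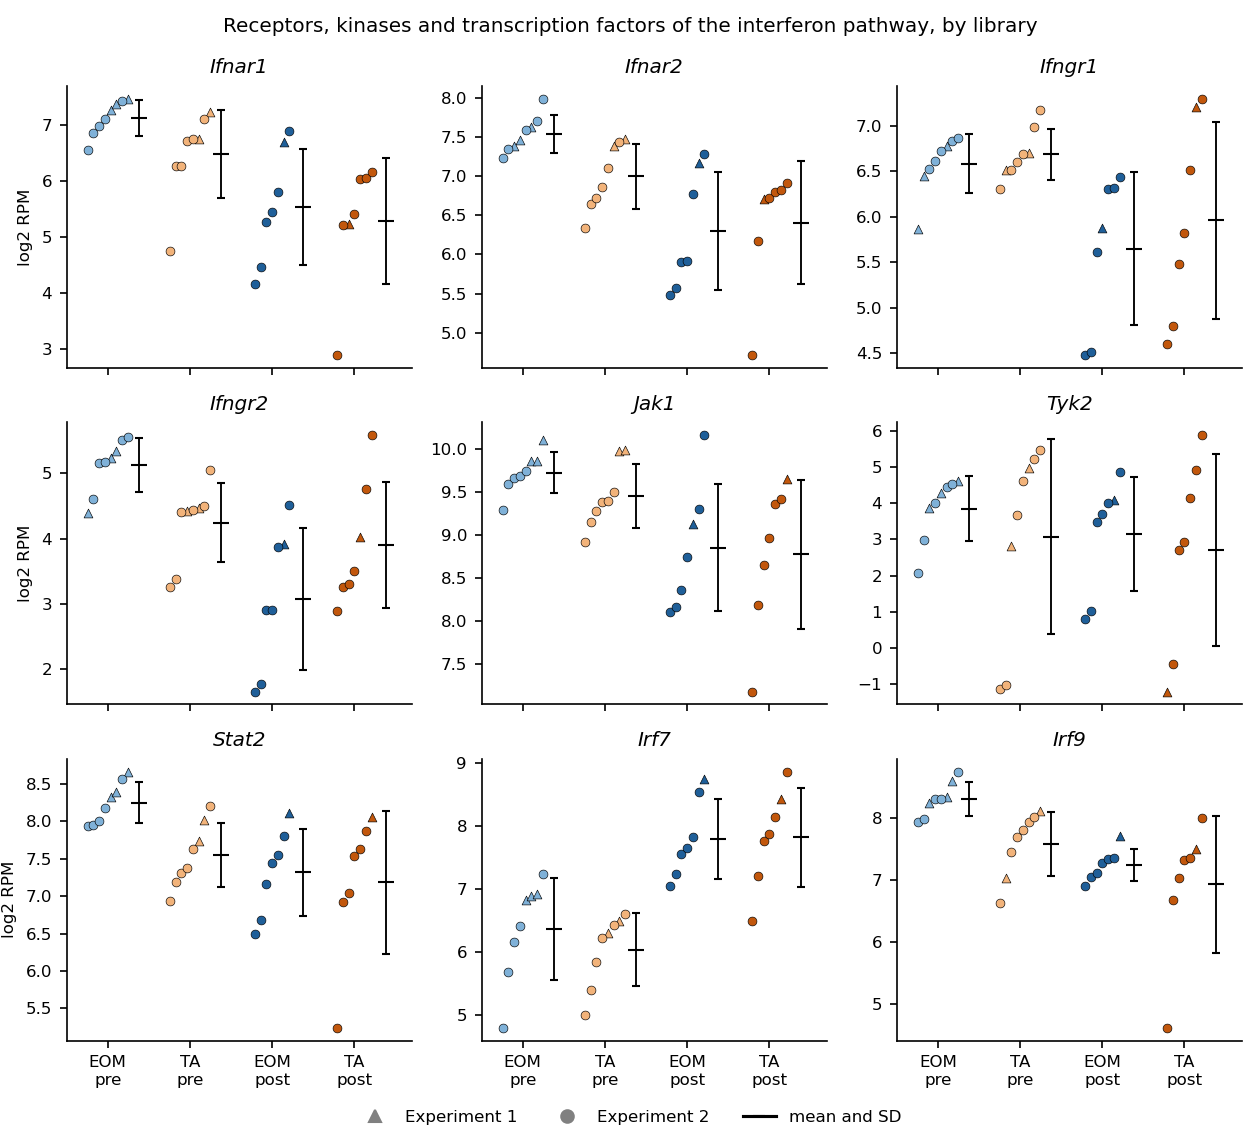
Log2 RPM of the 9 members in the 30 libraries, by group. Each point is a library (triangles, Experiment 1; circles, Experiment 2), spread sideways by value only, with bars for the mean and SD. *Irf7* is the member whose post-graft libraries stand higher, with medians of 7.65 in EOM and 7.87 in TA against 6.61 and 6.26 before grafting.

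Levels were also compared per kilobase of merged exons over all annotated transcripts. For *Irf7* these came to 3776 bases, the whole span of the gene, introns included. For *Irf9* they came to 5386 bases, most of the span of that gene. The levels per kb of both are thus low estimates, and ranks between genes are approximate. On the scale of log2 RPM per kb, *Jak1* had the highest mean of the 9 in all 4 groups. It ran from 6.87 in pre-graft EOM to 5.92 in post-graft TA. *Tyk2* was lowest in all 4, from 1.07 ± 0.89 (SD, n = 8) in pre-graft EOM to -0.07 ± 2.66 (SD, n = 7) in post-graft TA, and *Ifngr2* was next to lowest. In pre-graft EOM, *Irf9* (5.88), *Ifnar2* (5.80) and *Stat2* (5.68) followed *Jak1* and lay within 1 SD of each other. *Irf7* was seventh in pre-graft EOM, at 4.44 ± 0.81 (SD, n = 8), and sixth in pre-graft TA, at 4.12 ± 0.58. After grafting it was next to *Jak1* in both groups, at 5.88 ± 0.63 (SD, n = 7) in EOM and 5.90 ± 0.79 in TA, and there it did not differ from *Jak1* (5.998 ± 0.74 and 5.92 ± 0.86) beyond their spread.

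Expression of *Irf7* was higher after grafting in both muscles, and no other member passed the test for an increase in either. After transplantation of TA cells, *Irf7* rose by 1.79 ± 0.39 (SE) on the log2 RPM scale, 3.45-fold (adjusted p = 0.00256, limma across 13076 genes), and after transplantation of EOM cells by 1.44 ± 0.37, 2.71-fold (adjusted p = 0.00409, limma across 13094 genes). So 1 of 9 members was called higher in each, where 3.79% of genes were called higher in TA and 3.51% in EOM. None of the others was called lower in TA (30.9% of genes were), and *Ifnar1*, *Ifnar2*, *Ifngr2* and *Irf9* were called lower in EOM (4 of 9, against 55.8% of genes). Those 4 calls were lost (0 of 9) when values were centred, when mitochondrial genes were left out of the scaling, and with edgeR or DESeq2 on recovered reads, under which *Irf7* stayed called. Over all genes, centring turned 496 higher and 4046 lower calls in TA into 1003 and 743, and 460 and 7302 in EOM into 871 and 634.

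The lowest, median and highest log2 RPM of *Irf7* were 4.99, 6.26 and 6.61 in the 8 pre-graft TA libraries and 6.48, 7.87 and 8.86 in the 7 post-graft TA libraries. In EOM the values were 4.79, 6.61 and 7.24 before and 7.04, 7.65 and 8.74 after. These rest on 37 to 253 reads of *Irf7* per pre-graft library and on 109 to 921 per post-graft library. In each muscle the lowest post-graft library fell below the highest pre-graft library. The lowest in TA was mouse 3 of Experiment 2, at 6.48, in which 81.1% of gene reads were mitochondrial.

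On centred values, the groups did not overlap: *Irf7* stood at 4.47 to 6.40 before and 7.64 to 9.36 after grafting in TA, and at 4.13 to 6.51 before and 7.88 to 9.26 after in EOM. Of all genes, 2.18% in TA and 1.5% in EOM had every post-graft library above every pre-graft library on this scale. The centred change was 2.68 in TA (adjusted p = 2.41e-05) and 2.69 in EOM (adjusted p = 7.50e-05, limma), where 7.67% and 6.65% of genes were called higher. Against the median change of all genes on the deposited scale, *Irf7* stood 2.87 higher in TA and 2.91 higher in EOM, above 95.3% of genes in each. Among donors with both libraries, *Irf7* was higher after grafting in 7 of 7 for TA, by 0.26 to 2.76 as deposited and by 1.24 to 3.57 centred, and in 6 of 6 for EOM, by 1.14 to 2.25 and by 1.92 to 4.24. Within Experiment 2 alone the changes were 1.81 (adjusted p = 0.0196) and 1.59 (adjusted p = 0.0075). Experiment 1 had 1 post-graft library per muscle, at 8.43 in TA and 8.74 in EOM, too few for a value of its own. When libraries outside the study's quality list were added, the EOM change was 0.93 (adjusted p = 0.0812, limma) and no longer called, and the TA change was 1.87. Among the added libraries was pre-graft EOM mouse 1 of Experiment 1, with 302 reads on genes. A gene without a read stands at 10.7 log2 RPM in that library.

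**Figure D2:**
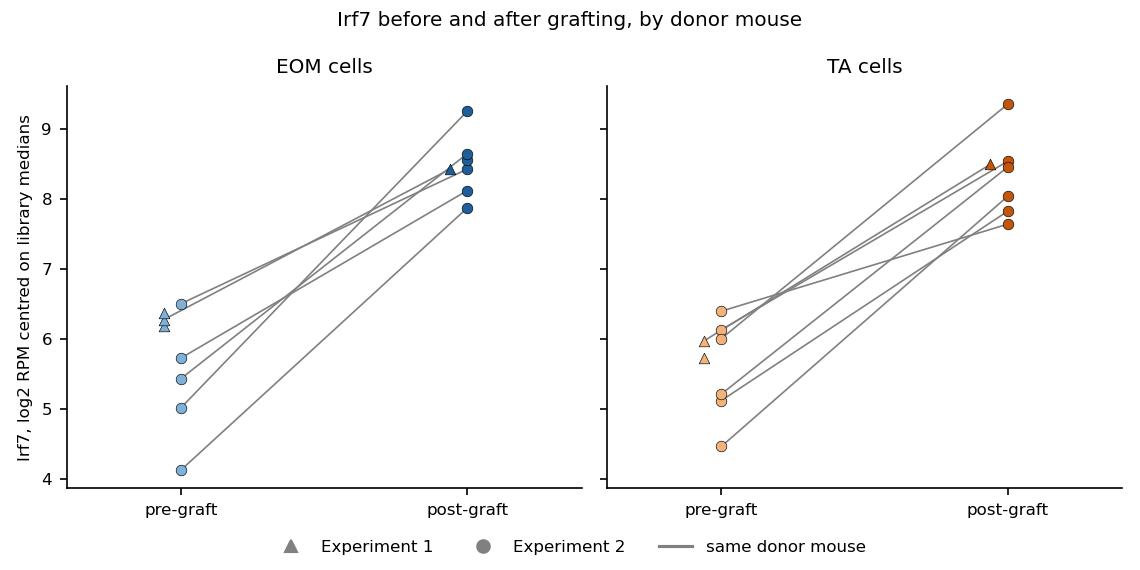
Centred log2 RPM of *Irf7* before and after grafting, with a line for each donor mouse measured at both times (7 for TA, 6 for EOM) and points for the others. Every line rises, by 1.24 to 3.57 in TA and by 1.92 to 4.24 in EOM.

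Markers of other cell types moved with grafting and their part in the *Irf7* change was not tested. Of 10 endothelial markers, 9 were called higher after grafting in each muscle, and their summed level was 102 to 831 RPM in pre-graft EOM, 19.2 to 2693 in pre-graft TA, 225 to 6301 in post-graft EOM and 1398 to 7939 in post-graft TA, with all 10 detected in every group. The post-graft EOM library with the lowest endothelial sum (225 RPM, mouse 4 of Experiment 1) had the highest *Irf7* level of its group as deposited, 8.74, and was rank 4 of 7 when centred (8.43). That with the highest sum (6301 RPM, mouse 1 of Experiment 2) stood at 8.54 and was rank 5 of 7 when centred (8.43). The post-graft TA library with the highest sum of all (7939 RPM, mouse 6 of Experiment 2) had the highest *Irf7* level of its group on both scales, 8.86 and 9.36 centred. The post-graft TA library with the lowest sum (1398 RPM, mouse 3 of Experiment 2) had the lowest *Irf7* level of its group as deposited, 6.48, and was rank 2 of 7 when centred (8.54). The pre-graft TA library with the highest sum (2693 RPM, mouse 2 of Experiment 2) had an *Irf7* level of 5.39. Summed macrophage markers were 25.2 to 2322 RPM in pre-graft EOM, 6.55 to 32.5 in pre-graft TA, 1.72 to 794 in post-graft EOM and 10.7 to 56.3 in post-graft TA, and the library at 2322 RPM (mouse 2 of Experiment 2) had the lowest *Irf7* level of pre-graft EOM, 4.79. The post-graft EOM library at 794 RPM (mouse 5 of Experiment 2) was second highest of its group in centred *Irf7* (8.65). Markers of plasmacytoid dendritic cells, in which *Irf7* is abundant at rest, summed to at most 29.9 RPM, and 3 of their 6 genes had no read in either post-graft group. Summed lymphocyte markers reached at most 59.8 RPM. Of the myofibre markers, 3 were called higher and 1 lower in TA, and 7 higher and 0 lower in EOM. Of the fibro-adipogenic markers, 3 were called higher and 2 lower in TA, and 0 higher and 3 lower in EOM. Centred, 3 of the fibro-adipogenic markers were called higher and 1 lower in TA, and 0 and 0 in EOM. Over all genes as deposited, 3.79% were called higher and 30.9% lower in TA, and 3.51% and 55.8% in EOM. Centred, 7.67% of all genes were called higher in TA and 6.65% in EOM.

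The receptor chains had lower mean values after grafting on the deposited scale, on which the median gene fell too. *Ifnar1* had a lowest, median and highest log2 RPM of 4.16, 5.44 and 6.90 in post-graft EOM and of 2.88, 5.42 and 6.16 in post-graft TA. The change was -1.60 ± 0.39 (SE, adjusted p = 0.00285, limma) in EOM and -1.20 ± 0.48 (adjusted p = 0.0551) in TA, or -0.12 and -0.11 against the median gene. The TA value passed the test when TA post-graft mouse 1 (-1.34), 2 (-1.32) or 6 (-1.33) or TA pre-graft mouse 3 (-1.45) of Experiment 2 was left out, and was -0.80 without TA post-graft mouse 3. *Ifnar2* had 5.48, 5.91 and 7.28 in post-graft EOM and 4.71, 6.72 and 6.91 in post-graft TA, with changes of -1.24 ± 0.32 (adjusted p = 0.00375) and -0.59 ± 0.38 (adjusted p = 0.206). Centred, neither chain was called in either muscle, and *Ifnar2* changed sign in both (0.0098 in EOM, 0.31 in TA).

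Among the members, *Ifngr2* had the largest decrease. It stood at 1.65, 2.90 and 4.51 log2 RPM (lowest, median and highest) in post-graft EOM, on 4 to 32 reads per library, against 4.40, 5.21 and 5.56 before. The change was -2.05 ± 0.52 (SE, adjusted p = 0.00351, limma), or -0.57 against the median gene. It was lower in 6 of 6 donors on both scales, by 0.029 to 2.60 on the centred scale, where the test was not passed (-0.80, adjusted p = 0.235). In TA it stood at 2.88, 3.51 and 5.59 after grafting, a change of -0.34 ± 0.58 (adjusted p = 0.643) that was 0.56 centred. *Ifngr1* changed by -0.93 ± 0.36 (adjusted p = 0.0303) in EOM and by -0.73 ± 0.42 (adjusted p = 0.165) in TA. The EOM value passed the fold threshold without EOM post-graft mouse 3 (-1.05), 4 (-1.04) or 6 (-1.07) of Experiment 2 or EOM pre-graft mouse 4 of Experiment 1 (-1.04).

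Neither kinase was called in either graft comparison. *Jak1* had a lowest, median and highest log2 RPM of 8.11, 8.75 and 10.2 in post-graft EOM and of 7.18, 8.96 and 9.65 in post-graft TA, with changes of -0.87 ± 0.28 (SE, adjusted p = 0.0140, limma) and -0.68 ± 0.36 (adjusted p = 0.129). These lay 0.61 and 0.41 above the median gene. Without mouse 2 of Experiment 2, whose post-graft EOM value was the highest, the EOM change was -1.09 (adjusted p = 0.00191) and was called. *Tyk2* had 2 to 58 reads per library in post-graft EOM and 0 to 104 in post-graft TA, and its changes of -0.71 ± 0.69 and -0.37 ± 1.16 had errors near or above their size.

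The genes *Stat2* and *Irf9*, which like *Irf7* are induced by interferon in many cell types, were not called higher on either scale. *Stat2* had 6.49, 7.44 and 8.11 log2 RPM (lowest, median and highest) in post-graft EOM and 5.24, 7.54 and 8.05 in post-graft TA, with changes of -0.93 ± 0.27 (SE, adjusted p = 0.00826, limma) and -0.36 ± 0.39 (adjusted p = 0.448). Against the median gene these were 0.54 and 0.72 higher, and centred changes were 0.32 (adjusted p = 0.402) and 0.53 (adjusted p = 0.140). Centred *Stat2* was higher after grafting in 6 of 6 donors for EOM, by 0.016 to 1.69, and in 6 of 7 for TA. Its EOM change was called without EOM post-graft mouse 2 of Experiment 2 (-1.01) or mouse 4 of Experiment 1 (-1.07).

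For *Irf9*, the lowest, median and highest log2 RPM of the 7 post-graft EOM libraries were 6.91, 7.27 and 7.71, all below the 8 pre-graft libraries (7.94 to 8.75), and 11.1% of all genes were separated in the same way. The change was -1.06 ± 0.23 (SE, adjusted p = 0.00159, limma), 0.42 above the median gene. It was -0.99 (adjusted p = 0.0353) with the donor mouse as a block and -0.997 without EOM pre-graft mouse 6 of Experiment 2, neither past the fold threshold, and centred values overlapped, with a change of 0.19 (adjusted p = 0.576). In TA it had 4.62, 7.33 and 8.01 after grafting and a change of -0.65 ± 0.42 (adjusted p = 0.206), or 0.24 centred.

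**Figure D3:**
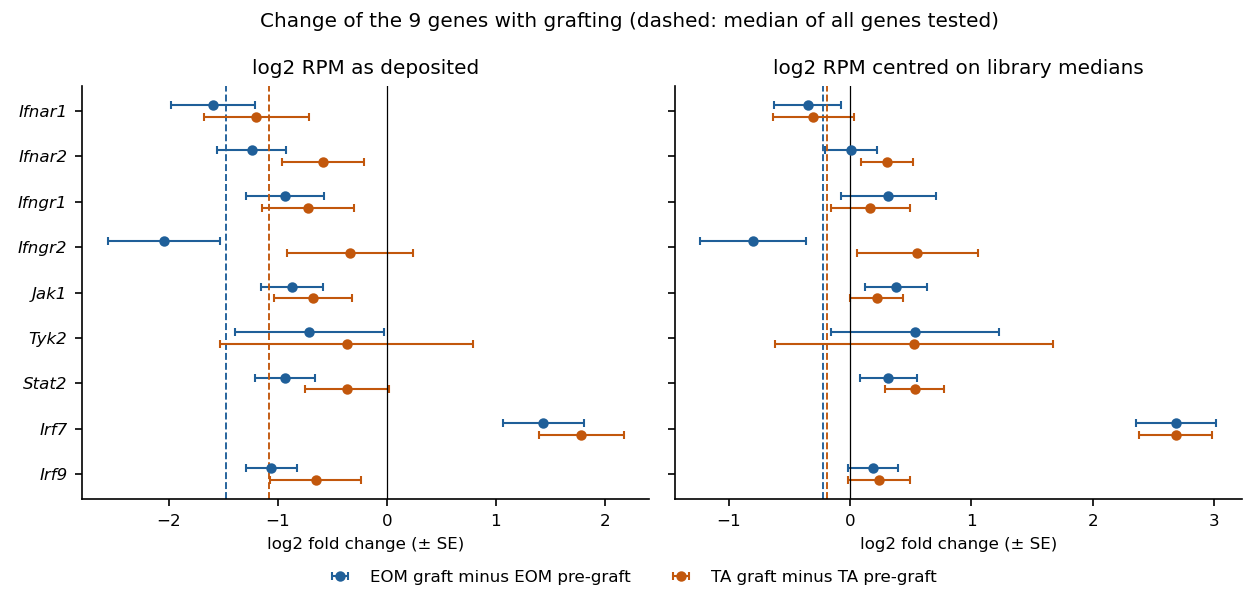
Log2 fold change (± SE) of each member after grafting in TA and in EOM, on the deposited log2 RPM scale and after centring on library medians, with a dashed line at the median change of all genes. *Irf7* lies above 0 on both scales (1.79 and 2.68 in TA, 1.44 and 2.69 in EOM), and the other 8 lie between -0.80 and 0.56 once centred.

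After grafting, EOM and TA cells had shared the same host muscle type, and no member was called different between them. All 9 differences of EOM over TA lay between -0.83 ± 0.87 (SE, *Ifngr2*) and 0.43 ± 1.12 (*Tyk2*), and *Irf7* differed by -0.02 ± 0.47, each with an adjusted p of 1.0 by limma. None of the 12377 genes was called (0% higher, 0% lower), while 452 genes and 0 members had an unadjusted p under 0.05. DESeq2 on the recovered reads called 1 gene higher and 2 lower, and edgeR called 0. For *Irf7* no difference was detectable at this SE, which does not show that the groups were alike.

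The change with grafting itself was compared between the muscles by an interaction term over all 30 libraries. No member was called. Of 14428 genes, 0.0554% were called higher and 0.152% lower for the EOM change minus the TA change. These were 8 and 22 genes, or 14 and 10 when centred. The estimate was negative for all 9 on the deposited scale and positive for 6 of 9 when centred, and the median of all genes was -0.31. The estimate farthest from 0 was that of *Ifngr2*, -1.71 ± 0.73 (SE, adjusted p = 0.625, limma), and that of *Irf7* was -0.35 ± 0.54 (adjusted p = 0.928). The pre-graft, post-graft and graft comparisons share libraries, so their values are not independent of each other.

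The rest of the pathway was described from lists of 9 further transducers, 12 negative regulators, 14 nucleic acid sensors and adaptors, 21 interferons and 31 target genes. Of the interferons, 17 were in the table and none passed the filter on low values. At most 2 of them had a read in any group, and their summed level reached 10.9 RPM in 1 pre-graft TA library and 4.71 RPM in 1 post-graft EOM library, with a median of 0 in every group.

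Of the 8 further transducers in the table, 1 was called higher and 2 lower in TA after grafting, with a median change of -0.82. These were *Jak2*, the kinase bound to *Ifngr2* (1.31 ± 0.43 SE, adjusted p = 0.0241, limma), *Irf3* (-1.46) and *Stat3* (-1.25). In EOM 0 were called higher and 4 lower, with a median of -1.09, and the largest decreases were *Irf5* (-2.31), *Stat3* (-1.63) and *Irf3* (-1.57), factors of antiviral and cytokine signalling. Over all genes, 3.79% were called higher and 30.9% lower in TA, and 3.51% and 55.8% in EOM. The decreases are therefore no result about the transducers. Centred, *Jak2* was the 1 transducer of 8 called, in TA (2.21), where 7.67% of all genes were called higher. A count of 1 is likewise no result about the transducers as a list.

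Among negative regulators, *Usp18*, a protease that removes *Isg15* from proteins and blocks signalling at *Ifnar2*, was called higher in both muscles. It had 1 to 158 reads per pre-graft library and 29 to 401 per post-graft library, and rose by 3.77 ± 0.74 (SE, adjusted p = 0.00141, limma) in TA and by 2.88 ± 0.59 (adjusted p = 0.001003) in EOM. No other regulator, of 11 tested in TA and 12 in EOM, was called higher, where 3.79% and 3.51% of all genes were. In TA 2 of 11 were called lower (*Pias2*, -1.47, and *Pias1*, -1.04, against 30.9% of all genes). In EOM 8 of 12 were called lower (against 55.8%), led by *Pias3* (-2.62) and *Pias4* (-2.44), inhibitors of Stat proteins. *Socs1*, which blocks the kinases, changed by -0.46 ± 0.44 (adjusted p = 0.393) in TA and by -0.48 ± 0.38 (adjusted p = 0.266) in EOM. Centred, *Usp18* was the 1 regulator called in each muscle, higher in both, where 7.67% of all genes were called higher in TA and 6.65% in EOM. The counts of calls are therefore no result about the regulators as a list.

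Of the sensors that detect nucleic acids and lead to interferon production, 10 were tested in TA. There 3.79% of all genes were called higher and 30.9% lower. Among the sensors, 3 were called higher and 2 lower. They were the adaptor *Mavs* (-4.49 ± 0.79 SE, adjusted p = 0.000597, limma), the RNA helicases *Dhx58* (2.74 ± 1.02, adjusted p = 0.0402) and *Ifih1* (2.70 ± 0.73, adjusted p = 0.00857), and, named after their values were seen, *Tmem173* (2.69), the DNA-sensing adaptor STING, and *Myd88* (-1.41), an adaptor of Toll-like receptors. In EOM 2 of 11 were called higher and 4 lower, where 3.51% of all genes were called higher and 55.8% lower. The counts of decreases are therefore no result about the sensors. The largest changes in EOM were in *Mavs* (-3.24), *Myd88* (-3.05) and *Traf3* (-2.95). The pair called higher in EOM, named after their values were seen, was *Tmem173* (2.71) and *Ifih1* (1.12). When centred, 4 were called higher and 1 lower in TA, and 2 higher and 0 lower in EOM. On that scale 7.67% of all genes were called higher in TA and 6.65% in EOM.

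The last list held genes induced by interferon. Of 28 targets tested, 19 were called higher and 0 lower in TA, with a median change of 2.55. In EOM 14 were called higher and 0 lower, with a median of 1.41. Over all genes, 3.79% were called higher and 30.9% lower in TA, and 3.51% and 55.8% in EOM. When centred, 27 were called higher in TA and 18 in EOM, against 7.67% and 6.65% of all genes. All 28 lay above the median gene in both muscles. The largest increases were *Ifi27l2a* (5.63), *Ifi44* (5.31) and *Rsad2* (5.05) in TA and *Trim30a* (5.61), *Ifi27l2a* (4.49) and *Ifi44* (4.14) in EOM, all known to be induced by type I interferon. *Isg15*, whose promoter is printed above, rose by 3.02 ± 0.50 (SE, adjusted p = 0.000400, limma) in TA and by 2.52 ± 0.40 (adjusted p = 0.000202) in EOM, from 14 to 268 reads per pre-graft library to 148 to 1490 per post-graft library. Before grafting 0 targets were higher and 4 lower in TA than in EOM: *Zbp1* (-3.50), *Gbp2* (-1.22), *Igtp* (-1.16) and, named after its value was seen, *Irgm1* (-1.15). Over all genes, 1.26% were called higher and 3.31% lower in that comparison. When centred, 1 of these 4 targets was called, *Zbp1* (-3.26), where 275 of 13217 genes were called lower. None of the 28 was called between the muscles after grafting, where none of 12377 genes was. None was called in the change with grafting, where 0.0554% of all genes were called higher and 0.152% lower. Neither count is a result about the targets.

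**Figure D4:**
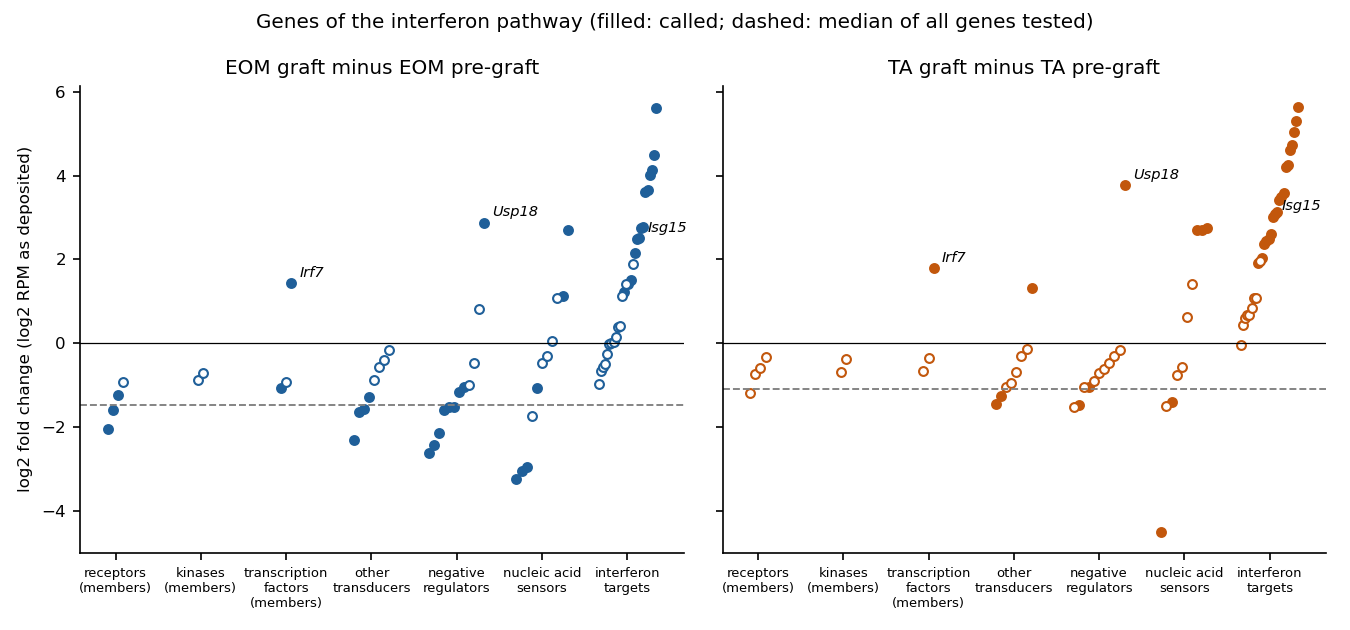
Log2 fold change after grafting, on the deposited log2 RPM scale, of the genes of each list tested in TA and in EOM. A point is a gene, filled where it was called, and the dashed line is the median change of all genes. Of 28 targets, 19 were called higher in TA and 14 in EOM, against 1 of 9 members in each. Over all genes, 3.79% were called higher in TA and 3.51% in EOM.

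Over the 30 libraries, the genes whose centred values followed *Irf7* most closely, of 14428, were *Mnda* (Pearson r = 0.93), *Rtp4* (r = 0.93) and *Ifitm3* (r = 0.92), and the last 2 are in the target list. These correlations describe libraries that share the graft difference, the depth and the mitochondrial share. The member closest to *Irf7* was *Stat2* (r = 0.53), which was at rank 1706. For *Irf9* the nearest genes were *Stx11* (0.65), *Pibf1* (0.64) and *Sept11* (0.63), with *Stat2* at rank 13 (0.59). The nearest to *Ifnar1* were *Tpcn1* (0.76), *Appl2* (0.74) and *Bcl3* (0.74), to *Ifnar2* *Pcyt1a* (0.75), *Glg1* (0.74) and *Tmem50a* (0.71), and to *Ifngr2* *Gm15943* (0.72), *Hiatl1* (0.69) and *1810014F10Rik* (0.65). In the mean centred level of the 28 targets, post-graft TA libraries lay at 6.87 to 8.48 and pre-graft TA libraries at 2.32 to 5.39, while post-graft EOM libraries lay at 4.62 to 8.55 and pre-graft EOM libraries at 3.52 to 5.01. The post-graft EOM library lowest in the targets (4.62, mouse 2 of Experiment 2) was also the lowest of its group in *Irf7* (7.88 centred), while mouse 5 was rank 2 of 7 in *Irf7* and rank 6 in the targets. In post-graft TA, the library lowest in *Irf7* (mouse 1 of Experiment 2, 7.64 centred) was rank 3 in the targets, and the one lowest in the targets (mouse 4, 6.87) was rank 4 in *Irf7*.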

How the data were processed

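RNA from sorted cells was made into libraries by the G&T method and sequenced as paired 75 bp reads. Per the labels and methods, reads were trimmed with Trim Galore (0.4.4), aligned to GRCm38 with HISAT2 (2.1.0) and quantified in Seqmonk. The authors deposited log2 RPM per gene. The authors also deposited the total read count per library and the percent of reads in genes, exons and mitochondria from Seqmonk's reports. The denominator of RPM is not given in the sources used here. A gene without a read stands at 0.9 of a read, and 100% of values were whole reads within 0.05 reads or 0.01%. Of 25965 rows, 66 with duplicate symbols were dropped. Of 40 RNA libraries, the 30 passing the study's quality list were used. The bisulfite libraries were not used here.

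The members, lists and tests were chosen with earlier results of these data known. Genes above log2 RPM 1 in at least 4 libraries were tested with limma 3.58.1 (R 4.3.3) on the deposited log2 values, using libraries of the groups compared, with Benjamini-Hochberg adjustment over all genes. Calls needed an adjusted p below 0.05 together with a change of more than 1 in size. A fold change on this scale understates that of genes near 0 reads. Named genes were the 9 members, *Socs1*, *Usp18*, *Isg15* and up to 3 called genes per list and comparison with the largest change in size. A gene of the transducer list is not reported here. Likeness was computed for members called at least once, naming 3 genes each. Alternatives were log2(RPM + 1), no filter, Experiment 2 alone, all libraries, scaling without mitochondrial genes, centring, edgeR 4.0.16 and DESeq2 1.42.0 on recovered reads, the donor mouse as a replicate block, and leaving out each library. Scripts were tested on simulated data.

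Libraries of 1 donor mouse share an animal (7 donors for TA over EOM before grafting, 7 for TA grafts, 6 for EOM grafts and 6 after grafting), so donors pair them. Their deviations from the group means correlated with a median of 0.070, 0.0081, -0.040 and 0.039. Each library is 1 sample of 1 donor. Per-length levels use merged exons of GENCODE M21. Promoter sequences and starts are from RefSeq (GRCm38.p6), and all 9 members matched.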

Additional observations from a re-analysis of the deposited data

Results flagged for a closer look

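In 6 of 36 groups of member values, 1 library stood far below the others of its group (Dixon's criterion, which chance meets in about 1 of 20 groups). Post-graft TA mouse 3 of Experiment 2, in which 81.1% of gene reads were mitochondrial, accounted for 4 of them. Its log2 RPM was 2.88 for *Ifnar1* (9 reads, next lowest 5.21), 4.71 for *Ifnar2* (32 reads, next 6.17), 5.24 for *Stat2* (46 reads, next 6.91) and 4.62 for *Irf9* (30 reads, next 6.68). The same library was second highest of its group for centred *Irf7*, at 8.54. Without it, the TA graft change of *Irf7* was 2.01 (adjusted p = 0.000377, limma).

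The value of *Ifnar1* in pre-graft TA mouse 3 of Experiment 2 was 4.74 log2 RPM on 53 reads (next lowest 6.27), with 18.8% mitochondrial reads. *Ifngr1* in pre-graft EOM mouse 4 of Experiment 1 was 5.87 on 90 reads (next lowest 6.45), with 3.17% mitochondrial reads. No member's change with grafting was called different between the muscles by the interaction test (limma).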

How the results depend on the processing

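The change of *Irf7* stayed above 0 in both graft comparisons under every alternative run and kept its call in all but 1. Its TA change ranged from 1.77 with log2(RPM + 1) to 2.68 with DESeq2, and its EOM change from 0.93 with all libraries, where 0 members were called higher and the cause was not tested, to 2.69 when centred. The added libraries included pre-graft EOM mouse 1 of Experiment 1, which had 302 reads on genes. With 1 library left out the change of *Irf7* ranged from 1.61 to 2.01 in TA and from 1.21 to 1.56 in EOM. The 4 members called lower in EOM were 0 when scaled without mitochondrial genes, when centred, with edgeR and with DESeq2. Experiment 2 alone also called *Ifngr1* lower (-1.10, adjusted p = 0.0412, limma). With all libraries *Stat2* was also called lower (-1.04, adjusted p = 0.0290, limma). With 1 library left out, 3 to 6 members were called lower in EOM. In TA 1 member was called lower with log2(RPM + 1), *Ifnar1*, and 0 to 1 with 1 library left out. Alternatives for the targets and for *Socs1*, *Usp18* and *Isg15* were added after seeing the data. The 14 EOM targets called higher became 23 with edgeR and 24 with DESeq2. Depth limits *Tyk2* and *Ifngr2* most, with as few as 0 and 4 reads per library.

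Donor mice pair the libraries. With the donor mouse as a replicate block, 1 member was called higher in each graft comparison and 3 were called lower in EOM (*Irf9*, -0.99, was lost), post-graft EOM over TA was -0.38 for *Tyk2*, and the interaction was 0.0024 for *Jak1*. The block changed no other call of a member. Over all genes it gave 293 higher and 4537 lower in EOM grafts, 266 and 439 in pre-graft TA over EOM, and 6 and 10 in the interaction.

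Over all genes, calls higher and lower in TA grafts were 496 and 4046, against 782 and 402 with edgeR, 1151 and 545 with DESeq2, 787 and 1552 without mitochondrial genes, and 198 and 1803 in Experiment 2 alone. In EOM grafts they were 460 and 7302, against 907 and 380 with edgeR, 1196 and 546 with DESeq2, 681 and 1627 without mitochondrial genes, 702 and 6698 with no filter, and 142 and 7004 with all libraries. In pre-graft TA over EOM they were 166 and 437, against 247 and 191 with edgeR, 323 and 259 with DESeq2, 97 and 295 in Experiment 2 alone, and 29 and 173 with all libraries. The interaction had 8 and 22, against 1 and 1 with edgeR, 72 and 32 with DESeq2, and 0 and 1 with all libraries.

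The following log2 fold changes had the opposite sign to the reported ones, and none of them was called. With Experiment 2 alone, pre-graft TA over EOM was -0.00043 for *Ifngr1*. The TA graft change was 0.56 for *Tyk2*. Post-graft EOM over TA was -0.38 for *Tyk2*. With all libraries, pre-graft TA over EOM was -0.66 for *Ifngr1*. Between the post-graft groups EOM over TA was 0.040 for *Ifnar2*, 0.12 for *Ifngr1*. With edgeR, pre-graft TA over EOM was 0.44 for *Tyk2*. The TA graft change was 0.23 for *Ifnar2*, 0.25 for *Ifngr1*, 0.63 for *Ifngr2*, 0.20 for *Jak1*, 0.45 for *Tyk2*, 0.43 for *Stat2*, 0.13 for *Irf9*, 0.36 for *Socs1*. The EOM graft change was 0.51 for *Ifngr1*, 0.33 for *Jak1*, 0.77 for *Tyk2*, 0.22 for *Stat2*, 0.081 for *Irf9*, 0.57 for *Socs1*. Post-graft EOM over TA was -0.17 for *Tyk2*, 0.016 for *Irf7*. The interaction was 0.23 for *Ifngr1*, 0.11 for *Jak1*, 0.29 for *Tyk2*. With DESeq2, pre-graft TA over EOM was 0.46 for *Tyk2*. The TA graft change was 0.35 for *Ifnar2*, 0.35 for *Ifngr1*, 0.77 for *Ifngr2*, 0.31 for *Jak1*, 0.51 for *Tyk2*, 0.53 for *Stat2*, 0.23 for *Irf9*, 0.48 for *Socs1*. The EOM graft change was 0.65 for *Ifngr1*, 0.44 for *Jak1*, 0.88 for *Tyk2*, 0.33 for *Stat2*, 0.19 for *Irf9*, 0.67 for *Socs1*. Between the post-graft groups EOM over TA was -0.11 for *Tyk2*, 0.030 for *Irf7*. The interaction was 0.29 for *Ifngr1*, 0.13 for *Jak1*, 0.37 for *Tyk2*. Scaled without mitochondrial genes, the TA graft change was 0.0024 for *Ifnar2*, 0.25 for *Ifngr2*, 0.22 for *Tyk2*, 0.23 for *Stat2*, 0.13 for *Socs1*. The EOM graft change was 0.0066 for *Jak1*, 0.16 for *Tyk2*, 0.40 for *Socs1*. Post-graft EOM over TA was 0.015 for *Ifnar2*, 0.10 for *Irf7*. The interaction was 0.079 for *Ifngr1*, 0.093 for *Jak1*. Centred, the TA graft change was 0.31 for *Ifnar2*, 0.17 for *Ifngr1*, 0.56 for *Ifngr2*, 0.22 for *Jak1*, 0.53 for *Tyk2*, 0.53 for *Stat2*, 0.24 for *Irf9*, 0.43 for *Socs1*. The EOM graft change was 0.0098 for *Ifnar2*, 0.32 for *Ifngr1*, 0.38 for *Jak1*, 0.54 for *Tyk2*, 0.32 for *Stat2*, 0.19 for *Irf9*, 0.77 for *Socs1*. Between the post-graft groups EOM over TA was 0.0042 for *Ifnar2*, 0.089 for *Irf7*. The interaction was 0.011 for *Ifnar1*, 0.20 for *Ifngr1*, 0.22 for *Jak1*, 0.069 for *Tyk2*, 0.060 for *Irf7*, 0.0054 for *Irf9*. With 1 library left out, the TA graft change was -0.97 to 0.28 for *Tyk2*. Post-graft EOM over TA was -0.15 to 0.48 for *Ifnar1*, -0.39 to 0.028 for *Ifnar2*, -0.19 to 0.22 for *Jak1*, -0.22 to 0.96 for *Tyk2*, -0.19 to 0.28 for *Stat2*, -0.25 to 0.15 for *Irf7* and -0.068 to 0.50 for *Irf9*. The interaction was -0.43 to 0.015 for *Ifngr1* and -0.997 to 0.26 for *Tyk2*.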
